A study of Mus musculus with 32 samples.

Results

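Control RPE of *rd1* mice was compared between P40 and P20, to ask which transcripts differ between these ages in eyes labelled as controls of the Nrf2 vector. The comparison uses 16 of the 32 libraries of the series, chosen by their labels, namely the control eyes of 7 mice at P20 and of 9 other mice at P40, 1 eye per mouse. All 16 mice are labelled *rd1*, which in the study is an albino line of FVB/N background with a loss-of-function allele of *Pde6b*, the gene of a rod phosphodiesterase subunit. By the labels, each control eye had been injected under the retina with AAV-Best1-GFP, in which a human promoter active in RPE drives GFP, and the other eye of the mouse had received AAV-Best1-Nrf2 with the same GFP vector (the Nrf2 eye). The retina was taken off, RNA was released from the RPE in the eyecup and amplified before sequencing, and other cells of the eyecup can have contributed RNA. The strain at P40 rests on the labels, which give 7 *rd1* pairs at P20 and 9 at P40, whereas the methods count 6 *rd1* pairs at P20 and, at P40, 4 *rd1* pairs and 5 pairs of CD1 mice. The files do not settle whether the 9 mice at P40 are of 1 strain, and the time of day of collection is not stated. The labels speak of 2 sequencing runs and do not say which library was in which, and run and age cannot be told apart where they coincide. The titles of all P20 libraries begin with M and those of all P40 libraries with A, without a stated meaning, so that whatever goes with these letters coincides fully with age. Total counts per library ranged from 23756954 to 41463426 at P20 (median 30969254) and from 17721493 to 43412270 at P40 (median 34586699).

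The RPE is a sheet of epithelium between the photoreceptors and the choroid. It regenerates the visual chromophore, takes up the tips that outer segments shed, moves ions, water and nutrients, and rests on Bruch's membrane, a layered matrix with a basement membrane of collagen IV and laminin, outer layers of collagen fibrils, and a core of elastin. In *rd1* mice, rods die in the first weeks after birth and cones are lost later, so that most rods are gone by P20.

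At P40, 14 of 31 basement membrane genes, 13 of 42 axon guidance genes, 10 of 27 genes of fibrillar and other collagens, and 5 of 21 elastic fibre genes were lower, as was the pigment cell gene *Pmel*, whereas the metallothioneins *Mt1* and *Mt2*, the transcription factor gene *Nfix*, the clock genes *Ciart* and *Dbp*, and many genes with short transcripts were higher. By edgeR's quasi-likelihood test, 2483 of 16832 genes tested (14.8%) had an adjusted *P* value under 0.05 (Benjamini-Hochberg), 1403 of them higher at P40 (8.34%) and 1080 lower (6.42%). Below, a gene is said to have risen or fallen only where it passed this threshold. Of the 1403 higher genes, 806 had their highest value in P40 mouse 3 and 295 in P40 mouse 5, and of the 1080 lower genes, 309 had their lowest value in P40 mouse 3. The count depended on single libraries. It was 494 without P20 mouse 1, 727 without P20 mouse 2, 652 without P20 mouse 3, 1137 without P20 mouse 4, 473 without P20 mouse 5, 1520 without P20 mouse 6, and 734 without P20 mouse 7, and it was 4273 without P40 mouse 1, 1005 without P40 mouse 2, 950 without P40 mouse 3, 3117 without P40 mouse 4, 607 without P40 mouse 5, 2549 without P40 mouse 6, 1815 without P40 mouse 7, 2719 without P40 mouse 8, and 2693 without P40 mouse 9. Each library was left out of the fit in turn, and 139 genes were higher and 270 lower in all 16 of these fits. Beside a gene, "of 16 fits" gives the number of these fits in which it passed in the same direction. Counts of list members below stand against 8.34% higher and 6.42% lower over all genes tested, and no list was tested as a whole. Without P20 mouse 3, 0 members passed in the lists of outer segment uptake, inner retina, mural cells, macrophages, melanocytes, heat shock chaperones, cholesterol synthesis, fatty acid oxidation, glycolysis, epithelial junctions, lysosome, proteasome, oxidative phosphorylation, and cytosolic ribosome. Values of single libraries did not overlap between the ages for 210 genes that were higher at P40 (1.25% of the genes tested) and 115 that were lower (0.683%).

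The weight of long transcripts differed between libraries and with age. In each library, the slope of log2 CPM (counts scaled to library size) relative to the mean of all 16 libraries was taken against log2 transcript length. At P20 the slopes ranged from 0.101 to 0.246 (mean 0.148), so that long transcripts weighed more, and at P40 they ranged from −0.392 to 0.175 (mean −0.115), the lowest in P40 mouse 5 (−0.392), P40 mouse 3 (−0.323), and P40 mouse 2 (−0.234). P40 mouse 1 (0.175) was the sole P40 library inside the range of P20. The mean slope fell by 0.26 from P20 to P40 (exact permutation test, two-sided, 7 against 9 libraries, *P* = 0.00297), and by 0.19 without P40 mice 3 and 5 (exact permutation *P* = 0.00583). Of 5 classes of transcript length, the shortest (3365 genes, 102 to 1379.5 bases) had 780 genes that rose and 25 that fell, and the longest (3364 genes) had 98 that rose and 449 that fell. The median transcript was 1267 bases for higher genes, 3901.5 for lower genes, and 2587 for all genes tested. With an offset for length in each library (a spline), 966 genes were higher (5.74%) and 505 lower (3%), of which 525 and 462 were also higher and lower without the offset. With the offset, the shortest class had 108 higher and 51 lower genes, and the longest class had 305 higher and 145 lower. The median transcript was then 3498 bases for higher genes and 3220.5 for lower genes. The slope against GC content, in log2 units per 10 percentage points, also differed, from 0.0742 to 0.196 at P20 (mean 0.119) and from −0.404 to 0.123 at P40 (mean −0.0927), lowest in P40 mouse 3 and inside the P20 range in P40 mouse 1 alone; this slope was not tested.

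**Figure D1:**
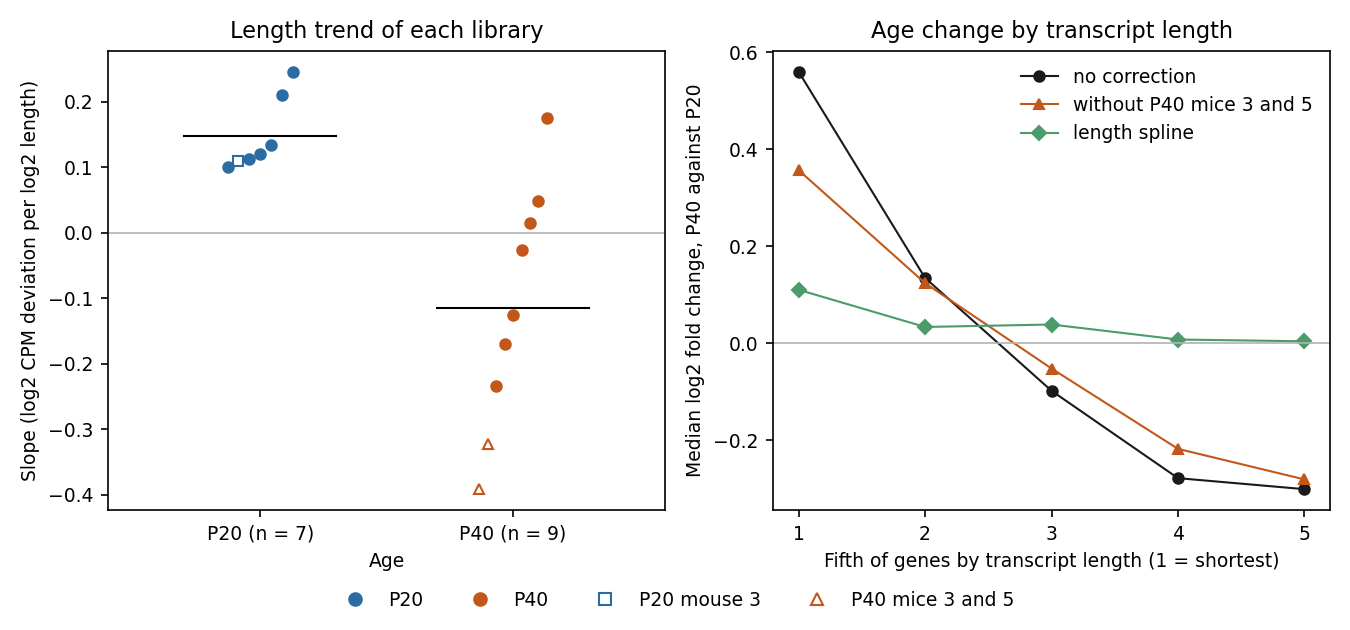
Left, slope of log2 CPM against log2 transcript length in each control library (points) with the mean (black line). Right, median log2 fold change in 5 classes of transcript length, without the offset for length, with it, and without P40 mice 3 and 5. All P20 libraries lie at 0.101 or above, and 8 of the 9 P40 libraries lie below 0.101; the open square is P20 mouse 3 and the open triangles are P40 mice 3 and 5.

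Some libraries stood apart. P20 mouse 3, labelled control, held the human *NFE2L2* transgene at 1100.4 CPM, against 0.969 to 157 CPM in the other control libraries at P20 and 0 to 105 CPM at P40 (P40 mouse 8, 105; P40 mouse 5, 53.3). Its counts were also closer to the Nrf2 eye of P20 mouse 4 than those of any other pair of libraries in the series were to each other, with a squared difference of 7.71 times sampling noise, against 43.9 for the next pair. Without it, 233 genes were higher (1.37% of 17065) and 419 lower (2.46%). P40 mice 3 and 5 had the highest shares of mitochondrially encoded transcripts (3.52% and 3.75% of counts, against 1.27% to 2.28% in the other P40 libraries), and without these libraries 219 genes were higher and 353 lower. The 10 most abundant genes took 6.92% to 10.6% of counts at P20 and 10.4% to 18.8% at P40, led at P40 by *Ptgds* (mean 29663 CPM), which makes prostaglandin D2, and by *Trf* (21920 CPM), the gene of transferrin. P40 mouse 8 was the shallowest library, and a single gene, *Lars2*, took 6.33% of its counts.

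The RPE label was checked against markers. *Krt12*, *Cryaa*, *Best1*, *Lars2*, *Ptgds*, and *Trf* were chosen after their values were seen. *Rpe65*, the isomerase of the visual cycle, ranged from 676 to 2085 CPM at P20 and from 887 to 3688 CPM at P40, whereas *Best1*, the bestrophin channel gene of RPE, was at 0.836 to 3.43 CPM at P20 and at 1.03 to 2.61 CPM at P40. Markers of other tissues were present in every library. *Krt12*, the keratin of corneal epithelium, spanned 59.0 to 18703 CPM at P20 and 121 to 37372 CPM at P40, and the lens gene *Cryaa* spanned 82.5 to 2351 CPM at P20 and 9.24 to 433 CPM at P40. In bulk RNA, fewer cells of a type and less RNA per cell cannot be told apart, here and in all results that follow.

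The basement membrane held the most genes that fell by count and share among the matrix lists. Of its 31 members tested, 14 fell and 0 rose, with a median log2 fold change of −0.74 against −0.00 over all genes tested. With the offset for length 10 members were lower (median −0.51, against 0.04 over all genes), without P20 mouse 3 the number was 11, and leaving out 1 eye at a time it was 10 to 15. The groups did not overlap for 7 members, all lower at P40. Their summed level ranged from 2470.0 to 4378 CPM at P20 and from 1178 to 2875 CPM at P40, and the ranges overlapped.

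Collagen IV, the network former of basement membranes, is encoded by gene pairs that lie head to head. On chromosome 8, *Col4a2* stood at 40.7–71.3 CPM at P20 (median 59.8) and at 5.93–25.2 CPM at P40 (median 10.3), that is, log2 fold change −2.29 ± 0.25 (standard error; adjusted *P* = 0.000389). Its partner *Col4a1* went from 29.4–65.2 CPM (median 40.5) to 7.66–21.5 CPM (median 13.5), or −1.63 ± 0.22 (adjusted *P* = 0.00189). In both genes the 9 P40 libraries lay below all 7 P20 libraries, with P40 mouse 1 the highest of P40. On the X chromosome, *Col4a5* stood at 107–293 CPM at P20 (median 202) and at 15.3–67 CPM at P40 (median 45.3; log2 fold change −2.15 ± 0.25, adjusted *P* = 0.000728). *Col4a6* stood at 49.5–126 CPM at P20 (median 89.2) and at 18.2–40.8 CPM at P40 (median 25.8; −1.52 ± 0.21, adjusted *P* = 0.00189). The groups did not overlap in either gene, and P40 mouse 8 was the lowest and P40 mouse 1 the highest of P40 in both. Per transcript length, *Col4a5* was the most abundant of the 4 genes at P20, at a mean of 61.8 length-scaled CPM, followed by *Col4a6* at 25.5, *Col4a2* at 17.8, and *Col4a1* at 13.8. All 4 passed in each of the 16 fits that left out 1 eye.

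The promoters of these pairs are shown because both partners of each pair fell together. Each window holds 300 bases, from 250 before to 50 after the start of the gene, in GRCm38.p6 (RefSeq), and capitals mark CCAAT and GGGCGG on either strand. *Col4a1* is read from the minus strand at chr8:11312777-11313076, *Col4a2* from the plus strand at chr8:11312555-11312854, *Col4a5* from the plus strand at chrX:141475169-141475468, and *Col4a6* from the minus strand at chrX:141474027-141474326.
Col4a1: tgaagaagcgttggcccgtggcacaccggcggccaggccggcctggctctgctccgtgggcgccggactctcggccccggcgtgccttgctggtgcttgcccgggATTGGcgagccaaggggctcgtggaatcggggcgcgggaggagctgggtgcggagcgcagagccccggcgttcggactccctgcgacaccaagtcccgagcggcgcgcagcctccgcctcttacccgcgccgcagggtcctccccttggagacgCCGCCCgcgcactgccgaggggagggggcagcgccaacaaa
Col4a2: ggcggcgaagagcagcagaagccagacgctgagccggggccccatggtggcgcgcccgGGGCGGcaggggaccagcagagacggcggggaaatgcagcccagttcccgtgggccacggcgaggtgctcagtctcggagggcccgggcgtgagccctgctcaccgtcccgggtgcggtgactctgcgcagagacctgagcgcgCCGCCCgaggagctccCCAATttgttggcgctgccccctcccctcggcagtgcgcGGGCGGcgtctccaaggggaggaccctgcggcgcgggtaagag
Col4a5: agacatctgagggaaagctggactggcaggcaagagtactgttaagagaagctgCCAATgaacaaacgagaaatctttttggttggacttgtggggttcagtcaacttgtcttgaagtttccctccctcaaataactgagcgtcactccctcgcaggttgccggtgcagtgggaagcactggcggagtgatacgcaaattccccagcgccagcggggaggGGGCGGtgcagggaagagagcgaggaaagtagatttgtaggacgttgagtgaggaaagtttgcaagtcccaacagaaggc
Col4a6: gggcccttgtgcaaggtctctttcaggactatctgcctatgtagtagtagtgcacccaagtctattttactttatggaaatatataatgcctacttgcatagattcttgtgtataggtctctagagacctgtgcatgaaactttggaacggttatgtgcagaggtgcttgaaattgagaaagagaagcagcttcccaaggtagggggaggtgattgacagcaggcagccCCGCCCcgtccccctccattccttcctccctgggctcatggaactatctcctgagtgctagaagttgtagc
The windows of *Col4a1* and *Col4a2* share 78 bases, and those of *Col4a5* and *Col4a6* lie 842 bases apart. CCAAT was found 1 time each in *Col4a1*, *Col4a2*, and *Col4a5* and 0 times in *Col4a6*. GGGCGG was found 3 times in *Col4a2* and 1 time in each of the others. The GGGCGG match of *Col4a1* lies in the shared bases and is the same site as the last one of *Col4a2*, read from the other strand. Of 32851 promoters, 37.4% hold CCAAT, 35.7% hold GGGCGG, and 11.4% hold the longer GGGGCGGGG, so that a match describes the window and marks no binding site.

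Other proteins of the basement membrane moved the same way. *Npnt*, which encodes the integrin ligand nephronectin, stood at 82.3–156 CPM at P20 (median 129.8) and at 6.31–69.9 CPM at P40 (median 24.8; log2 fold change −1.96 ± 0.34, adjusted *P* = 0.00625). *Lama1*, the gene of laminin α1, was at a low level throughout, 2.13–3.77 CPM at P20 (median 2.23) and at 0.533–1.58 CPM at P40 (median 0.825; −1.47 ± 0.26, adjusted *P* = 0.00807). Neither gene overlapped between the ages, and P40 mouse 1 came closest to P20 in both. The most counts of the list fell on *Sparc*, a collagen-binding matrix protein, at 801–2020.0 CPM at P20 (median 1870.3) and at 546–1318 CPM at P40 (median 933; −0.88 ± 0.22, adjusted *P* = 0.0258). *Sparc* overlapped because P20 mouse 6 was low, and it passed in 12 of 16 fits.

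Fibrillar and other collagens fell in 10 of 27 members tested, with 0 higher and a median of −0.60. With the offset for length 5 were lower (median −0.47), without P20 mouse 3 the number was 5, and leaving out 1 eye at a time it was 4 to 12. The median transcript of the list had 5348 bases. *Col2a1*, the collagen of cartilage and vitreous, stood at 2.09–54.4 CPM at P20 (median 16.4) and at 0.740–4.31 CPM at P40 (median 1.86; −3.71 ± 0.56, adjusted *P* = 0.00296). *Col9a1*, whose product coats collagen II fibrils, went from 3.18–614 CPM (median 286) to 2.71–78.1 CPM (median 26.5; −3.43 ± 0.72, adjusted *P* = 0.0155). In both, P20 mouse 6 lay within the P40 range and the other P20 libraries lay above it. *Col1a1*, the chain of the main fibrillar collagen, had a median of 114 CPM at P20 and 13 CPM at P40 (−2.47 ± 0.46, adjusted *P* = 0.00911), and *Col3a1* had medians of 62.3 and 15.1 CPM (−1.88 ± 0.45, adjusted *P* = 0.0223). These 4 genes passed in all 16 fits that left out 1 eye. *Col23a1*, a transmembrane collagen (−1.87, 7 of 16 fits), and *Col9a2* (−1.81, 3 of 16 fits) fell as well, whereas *Col8a1*, the collagen with the most counts, was at 439.7 to 2167 CPM at P20 and 338 to 2502 CPM at P40 and did not pass (adjusted *P* = 0.424).

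Genes that fold, cross-link, and trim collagen were lower in 8 of 29 members tested and higher in 1 (median −0.59). The number of lower members was 3 with the offset for length, 2 without P20 mouse 3, and 2 to 13 when 1 eye at a time was left out. *Serpinh1*, the collagen chaperone Hsp47, stood at 99.5–234 CPM at P20 (median 155) and at 23.5–144 CPM at P40 (median 34.1; −1.73 ± 0.34, adjusted *P* = 0.0114), and 8 of the 9 P40 libraries lay below all of P20, the exception being P40 mouse 1. *Bmp1*, the procollagen C-proteinase, did not overlap, at 31.4 to 45.8 CPM at P20 and 11.7 to 31 CPM at P40 (−0.99 ± 0.22, adjusted *P* = 0.0180). Its enhancer *Pcolce* rose instead, from a median of 408 CPM (range 252 to 453) to 873 CPM (range 386 to 999; 1.07 ± 0.21, adjusted *P* = 0.0110), and P40 mouse 8 alone fell within the P20 range. *Lox*, the enzyme that cross-links collagen and elastin (−1.77, 8 of 16 fits), *Adamts2*, the procollagen N-proteinase (−1.39, 13 of 16 fits), and *Fkbp10*, a prolyl isomerase of the endoplasmic reticulum (−1.07, 6 of 16 fits), were lower.

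Elastic fibre genes fell in 5 of 21 members and rose in 0 (median −0.70), with 3 lower under the offset for length and 2 to 10 when 1 eye at a time was left out. *Eln*, the gene of elastin, stood at 14.1–84.4 CPM at P20 (median 38.5) and at 6.64–11.2 CPM at P40 (median 9.34; −2.20 ± 0.27, adjusted *P* = 0.001000). The P40 libraries lay close together below all P20 libraries. *Emilin3*, whose product binds elastic fibres, had medians of 26.8 and 5.43 CPM (−2.21 ± 0.50, adjusted *P* = 0.0187) and passed in all 16 fits. The fibrillin gene *Fbn2* (−2.13, 9 of 16 fits) and *Ltbp3*, which tethers latent TGF-β (−1.07, 6 of 16 fits), were lower, and *Mfap4*, with the most counts, was not (adjusted *P* = 0.593).

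Of 31 matrix proteases and their inhibitors, 2 rose (6.45%, against 8.34% of all genes tested) and 6 fell (19.4%, against 6.42%), with a median of −0.41. With the offset for length 2 were higher and 3 lower, and without P20 mouse 3, 0 were higher and 2 lower. *Mmp3*, the protease stromelysin, was at 0–0.686 CPM at P20 (median 0.255) and at 1.12–7.41 CPM at P40 (median 1.57; 2.95 ± 0.73, adjusted *P* = 0.0249, 14 of 16 fits), without overlap but near the floor of 3 counts per library (0.0632 to 0.193 CPM) at P20. *Adamts1*, a protease of proteoglycans, fell from 75.4–341 CPM (median 193) to 18.1–112 CPM (median 55.1; −1.74 ± 0.35, adjusted *P* = 0.0121) and passed in all 16 fits. *Mmp15*, a membrane-bound protease (−1.82), *Adamts10* (−0.96), and *Adamts5* (−0.95) were lower and passed in 8, 7, and 8 of 16 fits. *Timp3*, an inhibitor that is deposited in Bruch's membrane, ranged from 1639.6 to 4167 CPM at P20 and from 652 to 5599 CPM at P40 (adjusted *P* = 0.720).

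**Figure D2:**
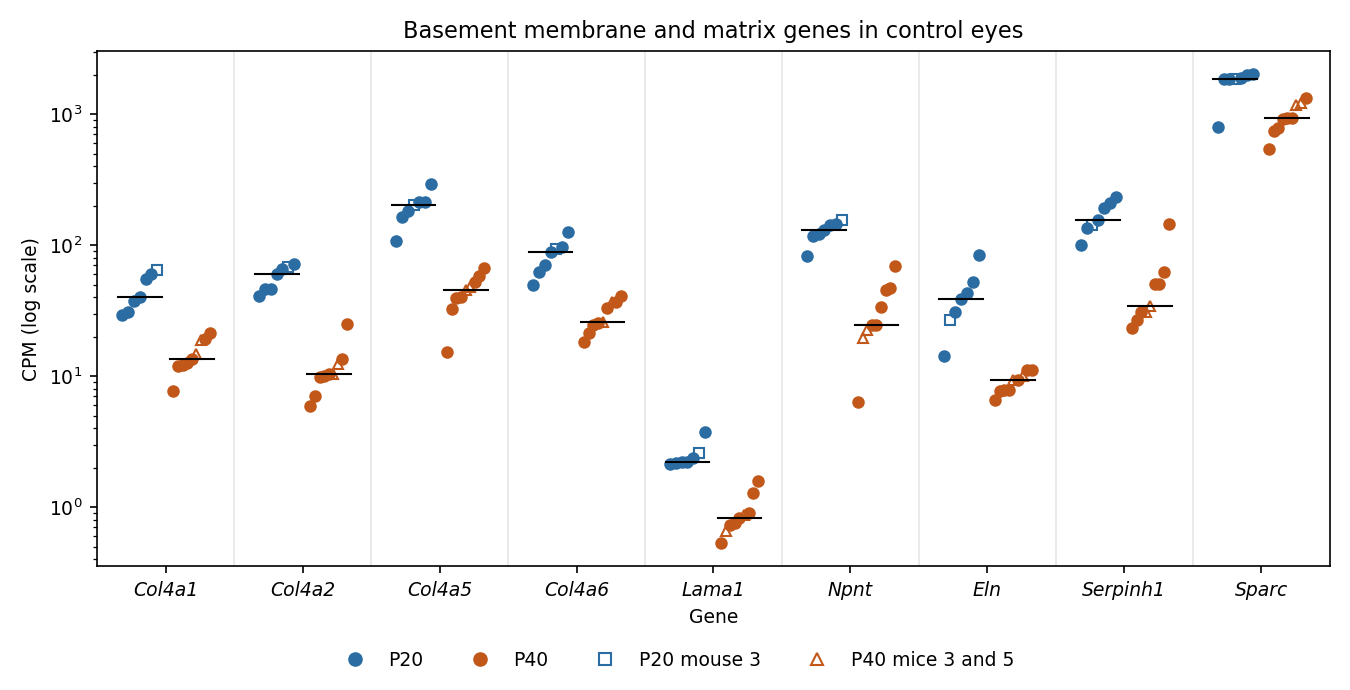
CPM of 9 matrix genes in each control library at P20 and P40 on a log axis (black line, median; open square, P20 mouse 3; open triangles, P40 mice 3 and 5). *Col4a1*, *Col4a2*, *Col4a5*, *Col4a6*, *Lama1*, *Npnt*, and *Eln* do not overlap between the ages, with P40 below P20.

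Ligands and receptors of axon guidance, which also act in epithelia and vessels, fell in 13 of 42 members tested and rose in 0 (median −0.59). The number was 11 with the offset for length, 10 without P20 mouse 3, and 9 to 18 when 1 eye at a time was left out, and 3 members did not overlap. *Sema5b*, a membrane-bound semaphorin, stood at 3.40–10.7 CPM at P20 (median 5.85) and at 0.527–2.06 CPM at P40 (median 1.39; −2.27 ± 0.31, adjusted *P* = 0.00189). *Ephb2*, a receptor of ephrins, went from 10.7–24.4 CPM (median 17.3) to 2.13–10.6 CPM (median 4.37; −1.60 ± 0.34, adjusted *P* = 0.0162), and its ligand *Efnb2* from a median of 49.1 to 16.5 CPM (−1.49 ± 0.30, adjusted *P* = 0.0137). *Sema5b* and *Ephb2* did not overlap between the ages, and in *Efnb2* P40 mouse 8 alone reached the P20 range. *Sema4d* (−1.86 ± 0.31, adjusted *P* = 0.00498), *Sema6a* (−1.60 ± 0.36, adjusted *P* = 0.0196), and the Slit receptor *Robo1* (−1.64 ± 0.36, adjusted *P* = 0.0187) fell as well, and all 6 genes passed in every fit that left out 1 eye. *Plxnb2*, the member with the most counts and a receptor of semaphorins, did not pass, at 422 to 665 CPM at P20 and 312 to 604 CPM at P40 (adjusted *P* = 0.216).

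*Fzd1* and *Ptk7* were among the 15 largest decreases named by rule. *Fzd1*, a Wnt receptor, was at 62.9–85.1 CPM at P20 (median 79) and at 8.60–61 CPM at P40 (median 16.5; −1.74 ± 0.34, adjusted *P* = 0.0114). *Ptk7*, a co-receptor of planar cell polarity, stood at 13.8–31.1 CPM at P20 (median 20.4) and at 1.31–12.9 CPM at P40 (median 4.56; −1.77 ± 0.41, adjusted *P* = 0.0201). P40 mouse 1 was the highest of P40 in both, and the groups did not overlap, which the rule required. *Wnt5a*, a Wnt ligand in the list of growth factors, fell from a median of 22.1 to 6.30 CPM (−1.28 ± 0.29, adjusted *P* = 0.0187), with overlap, and passed in all 16 fits. Among 44 growth factors and their regulators tested, 2 rose and 2 fell (median −0.36). *Igf2*, a growth factor of development (0.85, 8 of 16 fits), rose, *Lif*, a cytokine of the retinal injury response (−1.67, 5 of 16 fits), fell, and the Wnt antagonist *Dkk3*, with the most counts, did not pass (adjusted *P* = 0.103).

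Among the other large decreases without overlap, *Gpr83*, a G protein-coupled receptor, stood at 6.70 to 21.1 CPM at P20 and 0.966 to 4.81 CPM at P40 (−2.25 ± 0.31, adjusted *P* = 0.00189), and *C1qtnf6*, a secreted protein of the C1q and TNF family, at 12.7 to 30.4 and 1.22 to 7.21 CPM (−2.06 ± 0.28, adjusted *P* = 0.00189). *Cacnb3*, a subunit of voltage-gated calcium channels, had medians of 8.79 and 2.92 CPM (−1.96 ± 0.38, adjusted *P* = 0.0112). *Slc22a23*, of the organic ion transporter family, had medians of 23.6 and 5.80 CPM (−1.76 ± 0.26, adjusted *P* = 0.00279), and *Sept9*, a septin of the cytoskeleton, 46.2 and 14.2 CPM (−1.69 ± 0.26, adjusted *P* = 0.00296). The membrane protein genes *Tmem132a* (−1.78) and *Fam171a2* (−1.69), *Megf6*, which has EGF-like domains (−1.77), and the predicted gene *Gm7694* (−1.80) complete these decreases. In each of these decreases all 9 P40 libraries lay below all 7 P20 libraries, which the rule that named them required. Each passed in all 16 fits that left out 1 eye.

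Of 26 RPE markers, 4 rose and 1 fell, with a median of 0.50, and leaving out 1 eye at a time 0 to 9 rose. Their summed level was 10104–38217 CPM at P20 (median 24037) and 16893–94147 CPM at P40 (median 52719), with overlap. *Ttr*, the gene of the retinol and thyroxine carrier transthyretin, stood at 1059–5427 CPM at P20 (median 3195) and at 4209–47955 CPM at P40 (median 9675; 2.20 ± 0.55, adjusted *P* = 0.0259, 13 of 16 fits), highest in P40 mice 3 and 5. *Kcnj13*, a potassium channel of the apical membrane (1.27, 8 of 16 fits), and *Ermn* (1.16, 8 of 16 fits) rose. *Trpm1*, a cation channel of pigment cells and bipolar cells, fell (−1.26, 12 of 16 fits). *Rgr*, the opsin of RPE and the marker with the most counts, was at 1348 to 10418 CPM at P20 and 2916 to 15301 CPM at P40 (adjusted *P* = 0.202), and *Rpe65* did not pass either (log2 fold change 0.73, adjusted *P* = 0.108).

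Among 22 genes of pigment synthesis, which albino mice transcribe without making melanin, 1 rose and 2 fell (median −0.41). *Pmel*, which forms the fibrils of melanosomes, stood at 1902–7441 CPM at P20 (median 4622) and at 291–2484 CPM at P40 (median 1119; −1.94 ± 0.36, adjusted *P* = 0.00895). P20 mouse 6 lay within the range of P40, and the other P20 libraries lay above it. *Tyr*, the gene of tyrosinase, had medians of 508 and 243 CPM (−1.10 ± 0.29, adjusted *P* = 0.0293, 11 of 16 fits). *Bloc1s1*, a subunit of a complex for melanosome and lysosome sorting, rose (1.72, 10 of 16 fits), and *Dct*, a tautomerase of melanin synthesis with the most counts, did not pass, at 1738 to 4970.3 and 1939 to 5737 CPM (adjusted *P* = 0.400). Of 8 melanocyte markers, 1 fell, the receptor gene *Kit* (−1.25, 8 of 16 fits), and *Gpnmb*, with the most counts, did not pass (adjusted *P* = 0.0950).

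Uptake of outer segments rests on receptors of the Tyro3, Axl and Mertk family and on αvβ5 integrin. Of 20 such genes, 1 rose and 2 fell (median −0.30). *Tyro3* fell from a median of 62.8 to 19.6 CPM (−1.19, 7 of 16 fits) and *Axl* from 69.4 to 33.9 CPM (−1.10, 12 of 16 fits). *Tulp1*, which is expressed in photoreceptors and serves as a ligand of Mertk, rose from 26.2 to 76.7 CPM (1.71, 11 of 16 fits). *Anxa2*, an annexin of phagocytosis with the most counts, did not pass (adjusted *P* = 0.964).

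Of 37 genes of ion and solute transport, 2 rose and 5 fell (median −0.06), with 2 to 9 lower when 1 eye at a time was left out. *Aqp1*, a water channel, stood at 28–111 CPM at P20 (median 65.8) and at 4.25–41.6 CPM at P40 (median 11.2; −2.06 ± 0.46, adjusted *P* = 0.0187), and P40 mouse 1 alone exceeded the lowest P20 library. *Aqp1* passed in all 16 fits. *Ano1*, a calcium-activated chloride channel, did not overlap (−1.22 ± 0.31, adjusted *P* = 0.0270, 14 of 16 fits). The channel gene *Trpm3* rose (0.87, 8 of 16 fits), and *Slc16a8*, the basal lactate transporter with the most counts, did not pass (adjusted *P* = 0.558). Among 34 genes of epithelial junctions, 0 rose and 3 fell (median −0.44; 0 to 10 when 1 eye at a time was left out). These were the gap junction gene *Gja1* (−1.05, 6 of 16 fits) and the polarity genes *Prkci* (−1.04, 3 of 16 fits) and *Pard3* (−0.89, 5 of 16 fits).

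Of 21 rod markers, 3 fell and 0 rose, and the median over the list was 0.61. *Cngb1*, a subunit of the rod channel (−2.06, 14 of 16 fits), and *Nr2e3*, a rod transcription factor (−2.54, 5 of 16 fits), fell from low levels. *Slc24a1*, a cation exchanger of rods with the most counts of the list, was at 47.5 to 278 CPM at P20 and 76.5 to 632 CPM at P40 (adjusted *P* = 0.266). None of 17 cone markers passed edgeR's test (0 higher, 0 lower, median 0.77); their summed level was 171–1482 CPM at P20 (median 549) and 501–2805 CPM at P40 (median 1167), and *Pde6h*, a cone phosphodiesterase subunit with the most counts, was at 2.97 to 188 and 56.6 to 1379 CPM (adjusted *P* = 0.0644).

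Markers of the inner retina, 26 of them tested, had a median of −0.90 with 2 lower, among them *Trpm1*. Of 14 markers of Müller glia, 1 rose and 1 fell, *Dbi* (1.74, 6 of 16 fits) and *Abca8a* (−1.29, 10 of 16 fits), and *Clu*, the most abundant, did not pass (adjusted *P* = 0.0851). Lens crystallins and lens fibre genes had a median of −1.83, with 5 of 20 lower (8 with the offset for length, 1 to 8 when 1 eye at a time was left out). *Cryga*, a γ-crystallin, stood at 22.7–932 CPM at P20 (median 155) and at 0.569–32.4 CPM at P40 (median 8.10; −4.51 ± 0.87, adjusted *P* = 0.0110), with overlap. *Crygf* (−2.91), *Crybb1* (−2.71), *Cryge* (−2.59), and the lens filament gene *Bfsp1* (−1.85) fell too and passed in 10, 10, 8, and 6 of 16 fits, and *Cryab*, also a chaperone outside the lens and the member with the most counts, did not pass (adjusted *P* = 0.196).

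Markers of the choroid and of blood were present at both ages, and no member of any marker list was at 0 in all 16 libraries. Of 22 endothelial markers 0 passed (median 0.14, most counts *Ramp2*), with a summed level of 167–558 CPM at P20 (median 263) and 204–521 CPM at P40 (median 328). Mural cells had 2 of 13 lower, the smooth muscle myosin *Myh11* (−1.89, 11 of 16 fits) and *Notch3* (−1.59, 6 of 16 fits), with most counts in *Acta2* and a summed level of 386–1422 CPM at P20 (median 899) and 241–1191 CPM at P40 (median 429). Fibroblast markers, several of them collagens described above, had 1 of 22 higher (*Pcolce*, the member with the most counts and so with the largest part of the sum) and 6 lower, and their summed level of 639–1694 CPM at P20 (median 1519) and 785–1954 CPM at P40 (median 1595) overlapped. Beside *Col1a1* and *Col3a1*, the lower ones included *Pdgfra*, the receptor of mesenchymal cells (−1.26 ± 0.29, adjusted *P* = 0.0205), *Col5a1* (−1.38, 9 of 16 fits), and *Col6a1* (−1.31, 7 of 16 fits). Macrophage markers had 1 of 21 lower, the integrin *Itgam* (−1.42, 5 of 16 fits), most counts in *Csf1r*, and a summed level of 303–659 CPM at P20 (median 395) and 219–570.5 CPM at P40 (median 313).

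Blood markers had 1 of 6 lower, the heme synthesis gene *Alas2* of red cells (−1.46 ± 0.33, adjusted *P* = 0.0187), and most counts in the globin gene *Hba-a1*, with a summed level of 542–3531 CPM at P20 (median 1088) and 327–3588 CPM at P40 (median 817). Neither 14 muscle markers (median 0.86, most counts *Acta1*, summed level 32.3 to 435 CPM at P20 and 90.2 to 1101 CPM at P40) nor 12 Schwann cell markers (median −0.34, most counts *Mal*, 526 to 4007 CPM at P20 and 1213 to 3590 CPM at P40) had a member past edgeR's threshold. Summed levels of the rod list were 332–1079 CPM at P20 (median 468) and 388–1631 CPM at P40 (median 836), and those of the inner retina 1154–3852 CPM at P20 (median 2558) and 1059.9–1878 CPM at P40 (median 1341). Lens genes summed to 768 to 10688 CPM at P20 and 551 to 4351 CPM at P40, Müller glia markers, which include genes that RPE also expresses, to 9230 to 17823 and 8155 to 26498 CPM, and melanocyte markers to 1612 to 4033 and 669 to 3147 CPM. The part of these cells in the changes of matrix, pigment, and other genes was not tested.

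**Figure D3:**
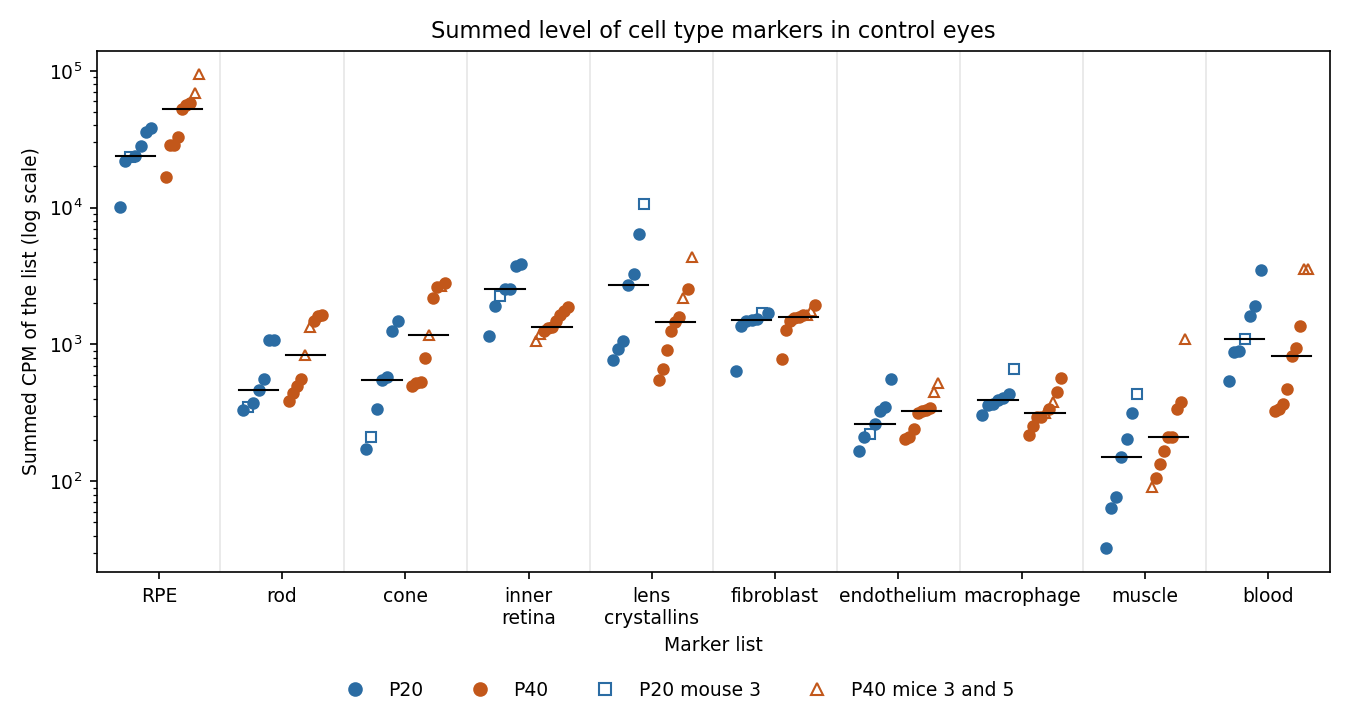
Summed CPM of 10 lists of marker genes in each control library at P20 and P40 on a log axis (black line, median; open square, P20 mouse 3; open triangles, P40 mice 3 and 5). The ranges of the ages overlap in each list drawn.

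Metallothioneins bind zinc and copper. *Mt1* stood at 459–757 CPM at P20 (median 607) and at 676–15160.0 CPM at P40 (median 1263; 2.51 ± 0.60, adjusted *P* = 0.0230, 14 of 16 fits). *Mt2* stood at 72.1–127 CPM at P20 (median 100.03) and at 129–2802 CPM at P40 (median 253; 2.74 ± 0.61, adjusted *P* = 0.0187), and it passed in all 16 fits. *Mt2* did not overlap and *Mt1* did so only in P40 mouse 4, and P40 mouse 3 was the highest and P40 mouse 5 the next in both. Without these libraries the log2 fold changes were 1.29 and 1.64, and with the offset for length they were 1.55 and 1.64. Of 13 genes of metallothioneins and zinc transport tested, these were the 2 that passed, and the median was 0.29.

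The promoters of *Mt1* and *Mt2*, neighbours on chromosome 8, are shown because both genes rose and because metal response elements are known to lie there. Capitals mark TGCRCNC (R is A or G), the core of the metal response element, on either strand, and both windows are read from the plus strand of GRCm38.p6, *Mt1* at chr8:94178839-94179138 and *Mt2* at chr8:94172368-94172667.
Mt1: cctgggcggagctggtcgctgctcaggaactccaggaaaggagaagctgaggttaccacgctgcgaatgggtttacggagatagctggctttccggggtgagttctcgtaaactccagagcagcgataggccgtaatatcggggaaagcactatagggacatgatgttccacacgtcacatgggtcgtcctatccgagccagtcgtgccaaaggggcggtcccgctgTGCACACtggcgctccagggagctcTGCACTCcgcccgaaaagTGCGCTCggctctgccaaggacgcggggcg
Mt2: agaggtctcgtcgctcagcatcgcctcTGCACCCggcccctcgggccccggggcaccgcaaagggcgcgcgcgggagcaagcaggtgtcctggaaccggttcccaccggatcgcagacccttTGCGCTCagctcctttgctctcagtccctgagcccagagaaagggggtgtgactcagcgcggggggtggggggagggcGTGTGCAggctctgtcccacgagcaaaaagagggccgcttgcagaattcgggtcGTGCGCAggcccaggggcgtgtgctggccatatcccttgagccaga
The core was found 3 times in *Mt1* and 4 times in *Mt2*, and 25.7% of all promoters hold it.

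Among the other increases without overlap, *Nmb*, which encodes the peptide neuromedin B, went from 2.12–5.72 CPM (median 4.02) to 6.53–63.9 CPM (median 13.8; 2.45 ± 0.48, adjusted *P* = 0.0113). *Sult1c1*, a sulfotransferase, went from 24.3–69.8 CPM (median 44.5) to 79.6–407 CPM (median 203; 2.09 ± 0.34, adjusted *P* = 0.00498). P40 mouse 3 was the highest and P40 mouse 5 the next in both genes, as P40 mouse 3 was in 11 of the 15 largest increases named by rule. *Igfbp6*, which binds IGF-II, went from 10.8–18.5 CPM (median 14.9) to 24.3–84.9 CPM (median 31.6; 1.39 ± 0.24, adjusted *P* = 0.00660), highest in P40 mouse 5. *Cetn4*, a centrin of basal bodies (1.64 ± 0.33, adjusted *P* = 0.0133), and the predicted gene *Gm48415* (1.45) rose in all 16 fits. *Anapc13*, a subunit of the anaphase-promoting complex (2.03), and *Scand1* (1.79) rose with short transcripts of 592 and 759 bases and passed in 13 of 16 fits each. Without P40 mice 3 and 5 their log2 fold changes were 1.16 (adjusted *P* = 0.0552) and 0.91. The log2 fold changes of *Mt1*, *Mt2*, *Nmb*, *Ttr*, *Tulp1*, *Bloc1s1*, *Dbi*, *Gpx4*, *Gsta1*, *Saa3*, *Ifi27*, *Sec61b*, *Manf*, *Hspe1*, *Hsp90aa1*, *H2afj*, *Hist1h2bc*, *Cdkn1b*, *Etfb*, *Atp6v1f*, *Pomp*, *Ndufs5*, *Ndufa7*, *Myl6*, and the named genes of the mitochondrial ribosome were also more than 1.5 times as large with these libraries as without them.

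*Cfi*, the serine protease that inactivates complement C3b, was at 1.27–4.19 CPM at P20 (median 2.35) and at 2.90–21.6 CPM at P40 (median 16; 2.44 ± 0.36, adjusted *P* = 0.00279), and 8 of the 9 P40 libraries lay above all of P20, the exception being P40 mouse 8. It was the single one of 22 complement genes tested to pass (median 0.29), and it did so in all 16 fits. Acute phase and cytokine genes had 4 of 21 higher and 1 lower, *Lif*. These were haptoglobin, *Hp* (4.07, 2 of 16 fits), which was at 0 CPM in the median P20 library and at 0.709 CPM in that of P40, *Saa3* (1.53, 7 of 16 fits), the protease inhibitor *A2m* (1.35, 8 of 16 fits), and *Serpina3n* (0.68, 3 of 16 fits). Of 36 genes of the interferon response and antigen presentation, 1 rose, *Ifi27* (0.89, 6 of 16 fits), and 2 fell, *Rsad2*, the antiviral viperin (−2.57, 13 of 16 fits), and *Ifi44* (−1.53, 4 of 16 fits), with a median of −0.12. The class I gene *H2-D1*, with the most counts, did not pass (adjusted *P* = 0.947).

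*Nfix*, a transcription factor gene of the nuclear factor I family, had the smallest adjusted *P* value of the genes named here. It stood at 37.7–61.4 CPM at P20 (median 52.7) and at 107–241 CPM at P40 (median 213; 1.92 ± 0.19, adjusted *P* = 0.000121). All 9 P40 libraries lay above all 7 P20 libraries, and the log2 fold change was 1.91 with the offset for length, 1.90 without P20 mouse 3, and 1.87 without P40 mice 3 and 5. In the list of RPE and eye transcription factors, *Nfix* and the clock repressor *Nr1d1* were the 2 of 31 that passed, both higher (median 0.06). *Otx2*, which sets RPE and photoreceptor identity and had the most counts, was at 191 to 393 and 196 to 645 CPM (adjusted *P* = 0.0843).

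Clock genes changed in both directions, 3 of 18 higher and 4 lower (median −0.26). *Ciart*, a repressor of the Clock and Bmal1 pair, stood at 2.75–14.2 CPM at P20 (median 5.66) and at 14.8–38 CPM at P40 (median 28.4; 1.97 ± 0.31, adjusted *P* = 0.00383). *Dbp*, an output gene of the same pair, stood at 159–309 CPM at P20 (median 219) and at 369–583 CPM at P40 (median 495; 1.19 ± 0.18, adjusted *P* = 0.00279). Neither overlapped between the ages. *Nr1d1*, which represses *Arntl*, rose as well (0.80, 4 of 16 fits). Lower were *Arntl*, the gene of Bmal1 (−1.07, 6 of 16 fits), *Npas2*, a partner of Bmal1, from a median of 12.1 to 2.70 CPM (−1.78 ± 0.40, adjusted *P* = 0.0187), and *Nfil3*, a repressor at the sites that Dbp activates, from 20.5 to 8.10 CPM (−1.10 ± 0.24, adjusted *P* = 0.0187). *Ciart*, *Dbp*, *Npas2*, and *Nfil3* passed in all 16 fits that left out 1 eye. These transcripts vary over the day in many tissues, and time of collection and age cannot be told apart here.

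The promoter of *Ciart* is shown because it had the largest increase among clock genes, with the E-box CACGTG, the element of the Clock and Bmal1 pair, in capitals. It is read from the minus strand of GRCm38.p6 at chr3:95882179-95882478.
Ciart: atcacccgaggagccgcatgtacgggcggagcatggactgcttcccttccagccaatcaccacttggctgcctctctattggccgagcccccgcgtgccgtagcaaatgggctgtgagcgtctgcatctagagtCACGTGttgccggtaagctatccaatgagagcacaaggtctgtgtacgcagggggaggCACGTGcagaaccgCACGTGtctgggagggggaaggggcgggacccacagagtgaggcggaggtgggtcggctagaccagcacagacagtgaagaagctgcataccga
CACGTG, the same on both strands, was found 3 times in this window and 0 times in those of *Dbp*, *Nr1d1*, *Npas2*, and *Nfil3*, and 7.15% of all promoters hold it. TTATGTAA, an element of Dbp and Nfil3, was found 0 times in these 5 windows and is held by 0.938% of all promoters.

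**Figure D4:**
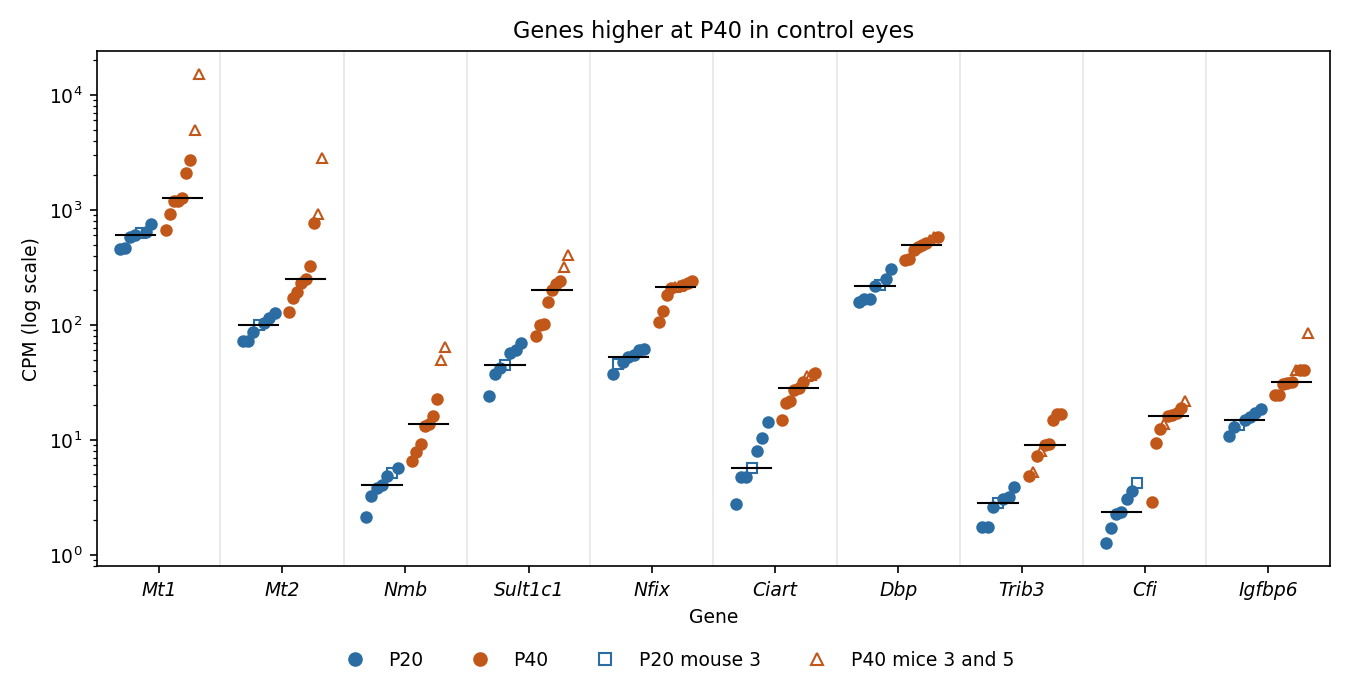
CPM of 10 genes that rose in each control library at P20 and P40 on a log axis (black line, median; open square, P20 mouse 3; open triangles, P40 mice 3 and 5). *Mt2*, *Nmb*, *Sult1c1*, *Nfix*, *Ciart*, *Dbp*, *Trib3*, and *Igfbp6* do not overlap between the ages, with P40 above P20.

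Genes of the integrated stress response, which slows translation under stress, were higher in 5 of 36 (13.9%, against 8.34% of all genes tested) and lower in 2 (5.56%, against 6.42%), with a median of 0.24. Leaving out 1 eye at a time, 2 to 7 were higher and 0 to 5 lower, and without P20 mouse 3, 3 were higher and 0 lower. *Trib3*, a pseudokinase that Atf4 induces, stood at 1.74–3.86 CPM at P20 (median 2.83) and at 4.82–16.9 CPM at P40 (median 9.09; 1.91 ± 0.31, adjusted *P* = 0.00498). *Ddit3*, the gene of CHOP, stood at 15.4–32.7 CPM at P20 (median 21.6) and at 29–121 CPM at P40 (median 49.9; 1.31 ± 0.29, adjusted *P* = 0.0187). *Trib3* did not overlap, and in *Ddit3* P40 mice 1 and 9 fell within the P20 range. The stress cytokine *Gdf15* (0.94, 6 of 16 fits) and *Psph*, of serine synthesis (0.73, 15 of 16 fits), rose, and *Iars*, a tRNA synthetase (−0.65, 4 of 16 fits), fell. *Slc3a2*, an amino acid transporter subunit with the most counts, did not pass (log2 fold change −0.01, adjusted *P* = 0.974).

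In the unfolded protein response, 2 of 26 rose and 4 fell (median 0.00). The chaperone *Calr*, calreticulin, was without overlap, at 717 to 956 CPM at P20 and 367 to 686 CPM at P40 (−0.66 ± 0.15, adjusted *P* = 0.0188), and it passed in all 16 fits. The sensor gene *Atf6* (−0.79, 10 of 16 fits), *Edem1* (−0.84, 4 of 16 fits), and *Dnajb9* (−0.65, 5 of 16 fits) fell, and the translocon gene *Sec61b* (1.37, 5 of 16 fits) and *Manf* (0.87, 6 of 16 fits) rose. *Hspa5*, the chaperone BiP with the most counts, had a log2 fold change of 0.00 (adjusted *P* = 0.989). Heat shock chaperones had 3 of 22 higher and 1 lower (median 0.05): *Hspe1* (1.35, 5 of 16 fits), *Hsp90aa1* (1.29, 10 of 16 fits), *Dnajb4* (0.37, 5 of 16 fits), and *Hspa2* (−1.12, 6 of 16 fits).

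The count of Nrf2 targets that passed depended on single libraries. With all libraries, 6 of 28 fell and 2 rose (median 0.10). Without P20 mouse 3, the library with the highest level of the transgene, 0 fell and 1 rose, and without P20 mouse 5, the next highest (157 CPM), 0 fell and 0 rose. Over all genes tested, 2483 passed with all libraries, 652 without P20 mouse 3, and 473 without P20 mouse 5. A link between the lost calls of targets and the transgene was not tested. *Srxn1*, which repairs peroxiredoxins, was at 46.6 to 97.5 CPM in the other 6 P20 libraries and at 445 CPM in P20 mouse 3, against 17.6 to 56.5 CPM at P40. *Txnrd1*, thioredoxin reductase, showed the same, with 462 CPM in that library, 104 to 167 CPM in the others, and 53.8 to 101 CPM at P40, and so did *Gclc*, of glutathione synthesis, with 545 CPM, 72.6 to 143 CPM, and 33.1 to 93.1 CPM. Of the other P20 libraries, P20 mouse 5 was the highest in all 3 genes. The log2 fold changes of *Srxn1*, *Txnrd1*, and *Gclc* were −1.67, −1.05, and −1.27 with P20 mouse 3 and −0.75, −0.58, and −0.55 without P20 mouse 3. The mouse gene *Nfe2l2* itself rose, from a median of 74 to 94.3 CPM (0.46, 4 of 16 fits). *Slc7a11* (−0.90, 13 of 16 fits), *Pgd* (−0.86, 7 of 16 fits), and *Abcc4* (−0.85, 6 of 16 fits) were the other targets that fell, and *Aldh3a1*, with the most counts, ranged from 89.5 to 6572 CPM at P20 (adjusted *P* = 0.401).

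In glutathione synthesis and conjugation, 9 of 40 rose and 2 fell (median 0.27), with 3 higher under the offset for length and 4 to 12 when 1 eye at a time was left out. With the offset 0 were lower and the median was −0.04, and without P20 mouse 3, 7 were higher and 0 lower. Leaving out 1 eye at a time, 0 to 3 were lower. *Gpx4*, which reduces lipid peroxides, did not overlap, at 736–1374 CPM at P20 (median 1134) and at 1408–6143 CPM at P40 (median 2219; 1.47 ± 0.34, adjusted *P* = 0.0201). The transferase genes *Gstt1* (1.10 ± 0.24, adjusted *P* = 0.0180) and *Gstt2* (1.13 ± 0.25, adjusted *P* = 0.0188) rose in all 16 fits, as *Gpx4* did. *Gsta1* (1.16, 7 of 16 fits) and *Gsto2* (0.97, 6 of 16 fits) rose too, and *Gsto1*, with the most counts, did not pass (adjusted *P* = 0.721).

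Subunits of large complexes, most of which have short transcripts, rose in number, and their counts moved with the offset for length and with single libraries. The mitochondrial ribosome had 47 of 78 higher and 0 lower (median 0.73), but 17 with the offset, 5 without P20 mouse 3, 4 without P40 mice 3 and 5, and 0 to 65 when 1 eye at a time was left out. It was the single list whose summed level did not overlap between the ages, at 2560.2–3023 CPM at P20 (median 2888) and at 3267–11111 CPM at P40 (median 4242). *Mrpl58*, with the most counts, stood at 50.4 to 104 CPM at P20 and 101 to 532 CPM at P40 (1.49 ± 0.35, adjusted *P* = 0.0207, 15 of 16 fits). It overlapped between the ages, whereas *Mrps21* (1.69, 8 of 16 fits), *Mrpl57* (1.62, 6 of 16 fits), and *Mrps28* (1.46, 10 of 16 fits) did not.

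Nuclear genes of oxidative phosphorylation had 33 of 76 higher and 0 lower (median 1.28), with 2 higher under the offset (median 0.43), 0 without P20 mouse 3, 2 without P40 mice 3 and 5, and 0 to 60 when 1 eye at a time was left out. Their summed level was 12384–15176 CPM at P20 (median 13967) and 13784–76745 CPM at P40 (median 18054). Examples are *Ndufs5* (1.92, 10 of 16 fits) and *Ndufa7* (1.88, 10 of 16 fits) of complex I and *Atp5k* of the ATP synthase (2.22, 8 of 16 fits), whereas *Atp5b*, with the most counts and a longer transcript, did not pass (log2 fold change 0.21, adjusted *P* = 0.339). The cytosolic ribosome had 10 of 80 higher and 0 lower (median 1.11), with 1 under the offset (median 0.38), 0 without P20 mouse 3, and 0 to 51 when 1 eye at a time was left out, and *Rps25* was an example (2.00, 8 of 16 fits). The proteasome had 22 of 38 higher and 0 lower (median 0.51), with 4 under the offset, 0 without P20 mouse 3, and 0 to 29 when 1 eye at a time was left out. *Pomp*, its assembly factor (1.07, 7 of 16 fits), and *Psmb4*, of its core (0.82, 9 of 16 fits), rose. *Psmd2*, with the most counts, did not pass (adjusted *P* = 0.303). Fewer members of these lists passed without P20 mouse 3, but the medians stayed close to those with all libraries. They were 1.27 for oxidative phosphorylation, 1.11 for the cytosolic ribosome, 0.50 for the proteasome, and 0.72 for the mitochondrial ribosome. Without P40 mice 3 and 5 the medians were lower, at 0.42, 0.68, 0.37, and 0.44 in the same order. Of the 13 protein genes of the mitochondrial genome 0 passed edgeR's test (median 0.58, with the offset 0.06; most counts *mt-Co3*).

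**Figure D5:**
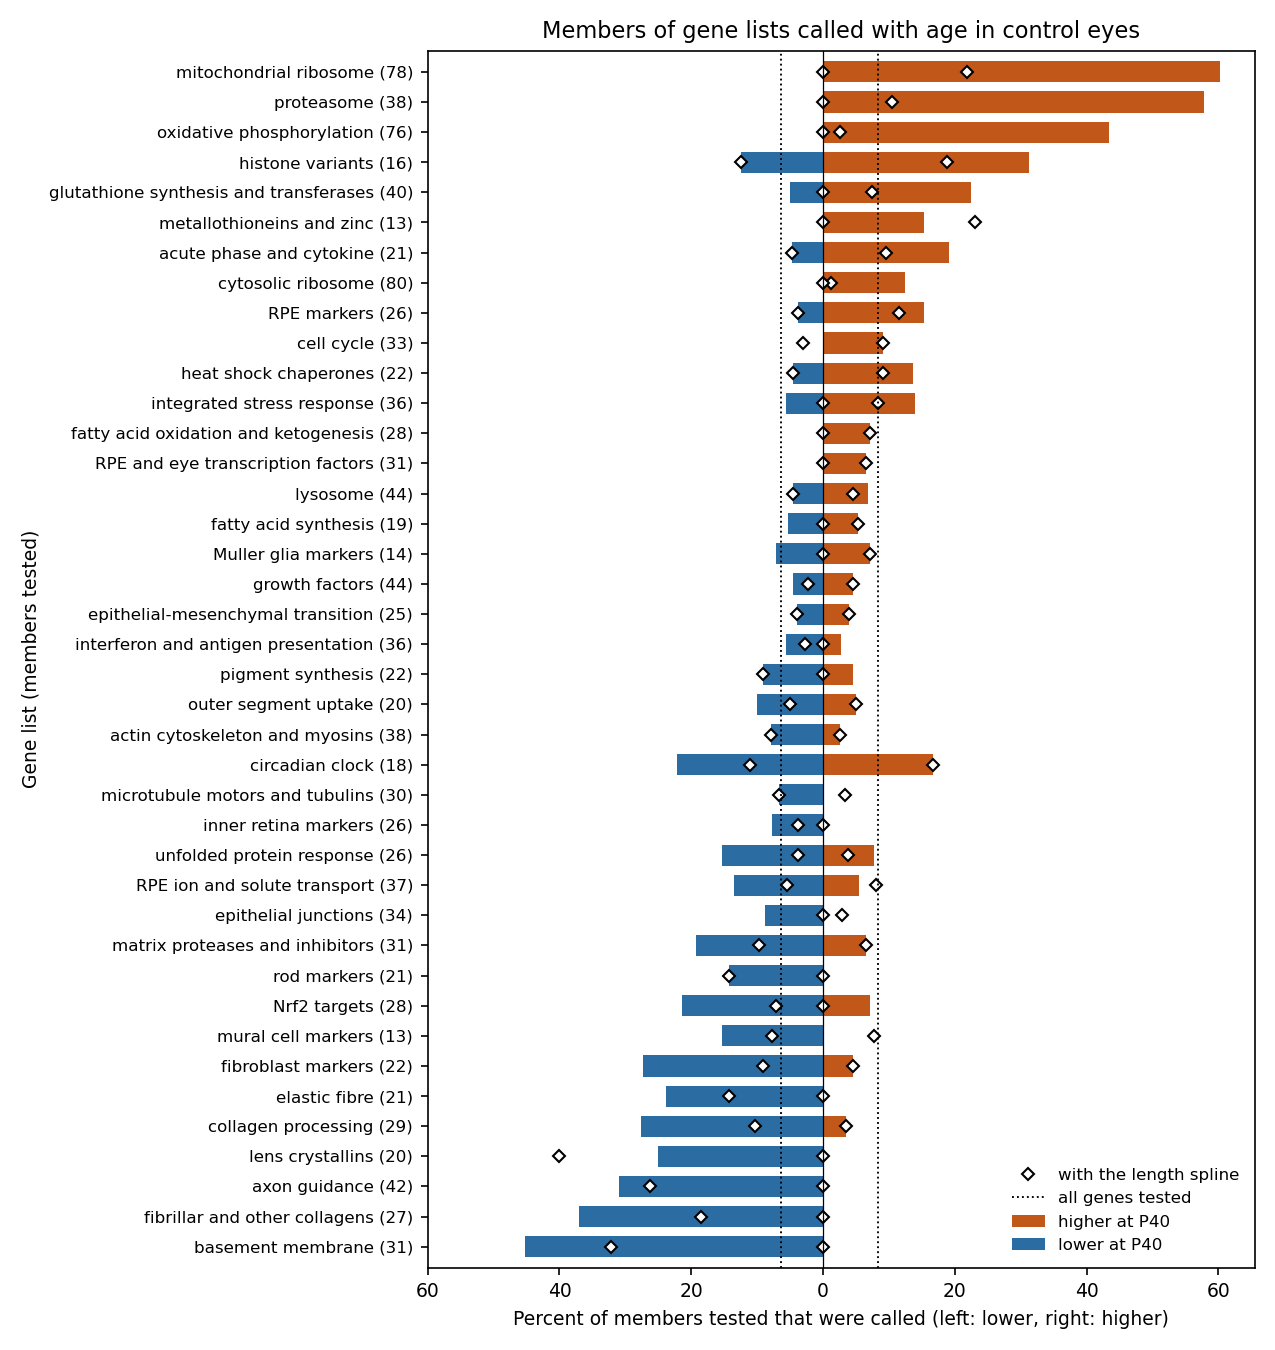
Members of each gene list that were higher or lower at P40, for the 40 lists with more than 1 such member, without and with the offset for transcript length. The mitochondrial ribosome (47 of 78), oxidative phosphorylation (33 of 76), and the proteasome (22 of 38) have the most higher members without the offset, and the basement membrane (14 of 31) and axon guidance (13 of 42) the most lower members.

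Histone genes had 5 of 16 higher and 2 lower (median 0.34). *H2afj*, a histone H2A variant, was without overlap (2.05 ± 0.50, adjusted *P* = 0.0245, 13 of 16 fits; 1.01 without P40 mice 3 and 5), as was *Hist1h2bc* (1.51, 13 of 16 fits), and outside the list *Hist1h2ae* (1.65 ± 0.31, adjusted *P* = 0.00999). The linker histone *Hist1h1c* rose (0.62 ± 0.14, adjusted *P* = 0.0191), whereas the linker histone *H1fx* fell without overlap, from 4.48–6.24 CPM (median 4.83) to 0.884–3.22 CPM (median 1.43; −1.59 ± 0.26, adjusted *P* = 0.00498). *Hist1h2ae*, *Hist1h1c*, and *H1fx* passed in all 16 fits. In the cell cycle list, 3 of 33 rose and 0 fell (median −0.06). *Cdkn1b*, the inhibitor p27, went from 12.3–19.7 CPM (median 18) to 23.6–76.7 CPM (median 26.6; 1.09 ± 0.25, adjusted *P* = 0.0193) without overlap, *Cdk1*, the kinase of mitosis, rose as well (0.79 ± 0.18, adjusted *P* = 0.0187), and *Pcna*, a factor of replication, rose in 7 of 16 fits (0.59).

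In lipid metabolism, 1 of 19 genes of fatty acid synthesis rose and 1 fell (median −0.13). *Elovl1*, an elongase of very long chains, did not overlap, at 110.0–221 CPM at P20 (median 167) and at 230.4–408 CPM at P40 (median 313; 0.96 ± 0.18, adjusted *P* = 0.00895), and it passed in all 16 fits, and *Acss2*, which makes acetyl-CoA, fell (−0.95, 6 of 16 fits). Fatty acid oxidation and ketogenesis had 2 of 28 higher and 0 lower (median 0.08), *Etfb*, of electron transfer (1.20, 11 of 16 fits), and *Echs1* (0.39, 4 of 16 fits), neither of which overlapped. Cholesterol synthesis had 0 of 26 higher and 1 lower (median −0.17), the regulator *Srebf2* (−0.90, 5 of 16 fits). In glycolysis 1 of 26 rose, the lactate dehydrogenase gene *Ldhb* (0.80, 8 of 16 fits), and 0 fell (median −0.04). Lysosomal genes had 3 of 44 higher, the proton pump genes *Atp6v1f* (1.10), *Atp6v1e1* (0.62), and *Atp6v1d* (0.50), and 2 lower, *Tfeb*, the regulator of lysosomal genes (−0.65), and *Atp6v0d1* (−0.40), which passed in 5, 9, 7, 4, and 5 of 16 fits (median of the list −0.09). These shares, 6.82% and 4.55%, lie below those of all genes tested, and leaving out 1 eye at a time 0 to 5 were higher and 0 to 5 lower.

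Cytoskeletal lists changed little in number. Actin and myosin genes had 1 of 38 higher, *Myl6* (1.13, 4 of 16 fits), and 3 lower (median −0.15), and *Vcl*, vinculin of cell adhesions, fell from a median of 110.3 to 46.3 CPM (−1.03 ± 0.20, adjusted *P* = 0.0114) in all 16 fits. *Myh10*, non-muscle myosin, was lower too (−0.67, 14 of 16 fits). Of 30 microtubule genes, 0 rose and 2 fell (median −0.02), *Map1a* (−1.06 ± 0.23, adjusted *P* = 0.0187) and *Tubb4a* (−0.93, 8 of 16 fits). In the list of epithelial-mesenchymal transition, 1 of 25 rose and 1 fell, *Itga5*, a chain of the fibronectin receptor (−1.54 ± 0.34, adjusted *P* = 0.0180, all 16 fits; median of the list −0.01). Of 4 genes of the sex chromosomes tested 0 passed edgeR's test (median 0.52).

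The Nrf2 eyes of the same mice were set beside the control eyes, with 84 of 16745 genes past the threshold between the ages (0.502%; 28 higher and 56 lower, and 21 to 190 genes when 1 eye at a time was left out). Of these, 83 were tested in control eyes, where 25 were higher and 44 lower as well, 14 had the same direction without passing, and 0 had the other direction; eyes of the same mice are not independent. The control library of P20 mouse 3 and the Nrf2 library of P20 mouse 4, the closest pair of the series, stand on either side of this comparison, and without the latter 34 genes passed in Nrf2 eyes. *Nfix* had a log2 fold change of 1.88 in Nrf2 eyes, *Ciart* 2.15, *Dbp* 1.07, *Npnt* −2.09, *Eln* −1.79, *Col4a5* −1.84, and *Pmel* −2.51, each past the threshold there too. For *Mt2* (2.08), *Sult1c1* (1.17), *Trib3* (0.45), and *Col4a1* (−1.21) the threshold was not reached in Nrf2 eyes.

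Whether the change with age differs between control and Nrf2 eyes was tested over all 32 eyes with the mouse, as labelled, as a block. The difference passed for 1 of 17959 genes (0.00557%), *Serpine3*, a serpin gene that was chosen after its values were seen. Its log2 fold change was −0.68 in control eyes (adjusted *P* = 0.12) and −3.85 in Nrf2 eyes (adjusted *P* = 0.000426), a difference of 3.08 ± 0.37 (SE, adjusted *P* = 0.00347), and without P20 mice 3 and 4 the difference passed for 1 gene as well. For the genes named above, a difference between the eyes was therefore not found by this test.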

How the data were processed

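RNA from control RPE of 7 mice at P20 and 9 at P40 was analysed as a table of 34453 genes. Per the methods, the authors mapped reads with Salmon (0.9.1 in the submitters' processing notes) and summed them to genes with tximport, and the deposited values are taken as these estimated counts, rounded to whole numbers and not normalized; featureCounts was run in parallel, and the table does not name its counter.

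The test was that of edgeR 4.0.16 under R 4.3.3 (filterByExpr, TMM, quasi-likelihood test, Benjamini-Hochberg, threshold 0.05), and alternatives used limma 3.58.1 and DESeq2 1.42.0. The two-sided exact permutation test enumerated 11440 assignments. Log2 CPM used a prior count of 2. Length was the median over protein-coding transcripts of a gene (GENCODE M21, GRCm38), and the offset was a spline with 5 degrees of freedom per library. On simulated counts with a length trend that differed between the ages, the test recovered 150 of 199 changed genes with 38 false calls. With the offset it recovered 143 with 1 false call. The simulated slopes spread less within an age than those of the P40 libraries (standard deviation 0.185), and no GC trend was added. These rates therefore need not hold for the data. No pairing was used between ages, and eyes of a mouse were blocked in the test of the difference. Fits used all libraries unless a left-out library is named.

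Members, comparisons and the 52 gene lists were chosen with earlier results of these data known. Genes are named if they are among the 15 largest increases or 15 largest decreases that passed in 3 fits (without and with the offset, and without P20 mouse 3), with a mean log2 CPM of at least 2 and no overlap between ages, if they are among up to 6 members per list with the largest changes that passed or have the most counts of a list, or if they are the transgene, *Nfe2l2*, or a marker such as *Rpe65*. Some genes that meet the rule are left out. Genes outside this rule are said to be chosen after their values were seen. Promoters (RefSeq, GRCm38.p6) were searched on both strands for TGCRCNC (in 25.7% of promoters) and its wider form TGCNCNC (51.0%), CACGTG (7.15%) and its wider form CANNTG (72.3%), TTATGTAA (0.938%) and its wider form TTANGTAA (2.32%), TGACGTCA (1.79%), CCAAT (37.4%), GGGCGG (35.7%), and GGGGCGGGG (11.4%). Lists were described by counts and medians, without a test of the list.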

Additional observations from a re-analysis of the deposited data

Results flagged for a closer look

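Within each age, a library was singled out where its value (log2 CPM for genes) lay far from the nearest other library relative to the range of its group, by Dixon's criterion. Chance alone singles out about 1 in 20 groups. Values are in CPM. In P20 mouse 6, *Npnt* (82.3), *Trpm1* (470.2), *Dct* (1738), *Axl* (28.6), *Col1a1* (24.4), *Col3a1* (27.9), *Col5a1* (5.22), *Gpnmb* (1272), *Sparc* (801), *Fkbp10* (18.3), *Fbn2* (0.261), *Mfap4* (4.53), *Col9a1* (3.18), *Col23a1* (12.9), *Col9a2* (2.57), *Adamts5* (8.53), *Slc3a2* (379), *Dkk3* (412), *Sema6a* (3.53), and *Gfra1* (12.9) lay apart from the other libraries of that age. P40 mouse 8 did so for *Col4a5* (15.3), *C1qtnf6* (1.22), *Rgr* (2916), *Pmel* (291), *Tyr* (53), *Clu* (4087), *Col5a1* (1.22), *Pcolce* (386), *Gpnmb* (356), *Lox* (0.0644), *Mmp3* (7.41), *Slc3a2* (257), *Cfi* (2.90), *Serpina3n* (169), *Slc16a8* (552), *Nfe2l2* (139.8), *Lars2* (72295), and *Trf* (5626). P20 mouse 5 stood out in *Kcnj13* (89.1), *Ermn* (112), *Rgr* (1348), *Slc24a1* (47.5), *Csf1r* (57.2), *Col8a1* (439.7), *Ano1* (39.3), *Trpm3* (198), *Slc16a8* (363), and *Trf* (3915). For P20 mouse 4 this held for *Itgam* (7.88), *Mal* (46.7), *H1fx* (6.24), and *Krt12* (59). P20 mouse 3 did so for *Gclc* (545), *Srxn1* (445), *Txnrd1* (462), and *Arntl* (7.81). P40 mouse 3 stood out in *Megf6* (1.14), *Pdgfra* (1.66), and *Edem1* (6.17). For P40 mouse 5 this held for *Igfbp6* (84.9). P40 mouse 1 did so for *Tmem132a* (40.2). P20 mouse 1 stood out in *Lama1* (3.77). For P40 mouse 9 this held for *Ifi44* (0.0907). P20 mouse 2 did so for *Lif* (0.247). P40 mouse 2 stood out in *Sema5b* (0.527). P20 mouse 6 also had the lowest share of mitochondrially encoded transcripts of its age, 1.33%. No cause of these values was tested.

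*Serpine3* had a change with age that differed between control and Nrf2 eyes by 3.08 on the log2 scale in the test of the difference over all 32 eyes.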

How the results depend on the processing

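Beside 2483 genes (1403 higher, 1080 lower), DESeq2 gave 4383 (2687 higher, 1696 lower) and limma voom with library weights 3747 (2122 lower). Without a filter on low counts 914 passed (295 and 619), with the offset for length 1471 (505 lower), and with offsets for length and GC content 1131 (766 and 365). A block by mouse number over numbers 1 to 7 gave 191 (20 and 171), although mice of the same number at both ages are different animals and their libraries did not deviate together (mean r = −0.0698). The offset for length without P20 mouse 3 gave 388 (211 and 177). Fits added after seeing the data gave 572 (219 and 353) without P40 mice 3 and 5 and 127 (31 and 96) without these and P20 mouse 3. Leaving out 1 control eye at a time gave 473 to 4273 genes (155 to 2280 higher, 312 to 1993 lower), and leaving out 1 Nrf2 eye at a time, also added after seeing the data, 21 to 190. The cause was not tested for any of these changes.

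RLE normalization, robust dispersion, a stricter filter, and 1 fit over all 32 eyes kept these counts within 1.5 times. The fall of the length slope passed in all 18 alternatives run, and the difference between the eyes gave 1 gene under both of its alternatives. No named gene changed direction past the threshold in any alternative run. A level of 3 counts corresponds to 0.0632 to 0.193 CPM, depending on the library, and *Mmp3*, *Hp*, *Nr2e3*, *Cngb1*, and *Lox* were at or below it in at least 1 library.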

Other observations

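A few genes outside the lists, chosen after their values were seen, changed in all 16 fits. *Ret*, the receptor tyrosine kinase of GDNF, stood at 3.00–21.3 CPM at P20 (median 6.12) and at 1.20–2.90 CPM at P40 (median 1.62), without overlap (−2.37 ± 0.38, adjusted *P* = 0.00408). Its co-receptor *Gfra1* fell from a median of 43.1 to 12.8 CPM (−1.68 ± 0.34, adjusted *P* = 0.0131), with overlap. *Igf2bp2*, an RNA-binding protein (−1.84 ± 0.32, adjusted *P* = 0.00660), and *Hs6st1*, which sulfates heparan sulfate (−1.61 ± 0.32, adjusted *P* = 0.0125), fell without overlap, and the Wnt regulator *Dact1* fell with overlap (−2.02 ± 0.40, adjusted *P* = 0.0116).

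Among increases chosen in the same way, *Tspo*, a protein of the outer mitochondrial membrane, stood at 103–165 CPM at P20 and at 206–668 CPM at P40 (1.27 ± 0.25, adjusted *P* = 0.0125), and *Park7*, the redox protein DJ-1, at 142–180.1 and 223–704 CPM (1.27 ± 0.25, adjusted *P* = 0.0126), both without overlap. *Egln1*, the oxygen-sensing prolyl hydroxylase, rose from a median of 24.8 to 65 CPM (1.28 ± 0.28, adjusted *P* = 0.0183). *Khdrbs3*, a splicing regulator, rose from 9.45 to 33.6 CPM (1.66 ± 0.37, adjusted *P* = 0.0188). *Ccnb1ip1*, a ligase of meiotic crossing over, had the widest span of these genes, 0.886–21.4 CPM at P20 and 3.51–838 CPM at P40 (4.83 ± 1.11, adjusted *P* = 0.0201), with overlap.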
